A study of Homo sapiens with 9 samples.

Results

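The sites described here are all 12340 rows of the list that compares EGR1 chromatin immunoprecipitation (ChIP-seq) in fibroblasts with induced BRAF V600E given clobetasol with the same ChIP in proliferating fibroblasts. They were taken whole, with no selection on their values, out of 28625 rows in both lists of the series. The cells are BJ-hTert-B-RAF-V600E, human fibroblasts immortalised with telomerase, whose BRAF V600E oncogene is turned on by doxycycline, so all groups carry both transgenes. The treated group received doxycycline at 1000 ng/mL and clobetasol at 2 nM, and the proliferating group received ethanol and DMSO, each for 24 h. Each group had 3 libraries, which the authors pooled before calling, so every value below compares 1 pool with 1 pool and has no spread between replicates. Titles name DMSO for the clobetasol group as well, separate cultures for the replicates are not stated, and 2 of the proliferating libraries carry the same sample name. Another group, induced with doxycycline at 1000 ng/mL and given DMSO for 24 h, was compared with the same proliferating pool and gave 16285 sites. Its values are given only beside those of the clobetasol list. Its median fold over all its sites was 3.64, against 3.16 with clobetasol, so its folds at single places stand on a higher general level.

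EGR1 is a zinc finger transcription factor whose gene is switched on within minutes of ERK signalling, the kinase pathway that BRAF V600E drives. It binds GC-rich DNA with the core GCGTGGGCG, mostly near gene starts, and its targets include the NAB corepressors that limit it and inhibitors that damp ERK signalling. Clobetasol activates the glucocorticoid receptor, a ligand-dependent factor that raises genes such as those of metallothioneins and NFKBIA and lowers many inflammatory genes.

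The sequences below show where the letters of the EGR1 core stood relative to the summits of 4 sites gained in the presence of clobetasol. They were chosen after the values were seen, because these 4 summits lay closest to such a motif among the promoters that could be searched, so their closeness supports nothing by itself. Each is the stretch from 200 to 81 bases before the gene start in RefSeq's promoter table (GRCh38.p14), written 5′ to 3′ on the gene's strand. Capitals mark GCGGGGGCG or GCGGGNGCG on either strand, where N is any base and the second motif includes the first. These coordinates are of GRCh38.p14, whereas all peak positions in the rest of the text are of hg19. Summit and motif are compared only through their distance to the gene start, negative before it.

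GADD45B, chr19:2475927-2476046, plus strand: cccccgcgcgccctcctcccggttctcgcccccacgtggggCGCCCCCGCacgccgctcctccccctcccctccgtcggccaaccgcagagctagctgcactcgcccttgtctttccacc
DUSP7, chr3:52056652-52056771, minus strand: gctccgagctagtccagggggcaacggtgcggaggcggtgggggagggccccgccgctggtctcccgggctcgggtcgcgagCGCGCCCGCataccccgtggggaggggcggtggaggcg
DUSP2, chr2:96145521-96145640, minus strand: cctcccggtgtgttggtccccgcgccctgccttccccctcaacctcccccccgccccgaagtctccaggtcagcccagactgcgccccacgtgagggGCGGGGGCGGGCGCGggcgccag
BAIAP2, chr17:81034951-81035070, plus strand: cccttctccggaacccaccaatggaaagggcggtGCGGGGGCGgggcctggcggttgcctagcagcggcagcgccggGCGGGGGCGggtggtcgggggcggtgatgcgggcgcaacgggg

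GADD45B encodes a stress-induced signalling protein, DUSP2 and DUSP7 encode phosphatases of MAP kinases, and BAIAP2 encodes an adaptor at actin protrusions. The summit of the GADD45B site lay at −159 bp from the gene start and 4 bp from the centre of its motif. The DUSP7 summit lay at −120 bp and 6 bp from the motif centre. At DUSP2 the summit stood at −106 bp and 7 bp from the nearer of 2 overlapping motifs. At BAIAP2 it stood at −129 bp and 10 bp from the nearer of 2 separate motifs. The hg19 gene starts were written from general knowledge of the build, not read from an annotation, and the gene spans differ from RefSeq's GRCh38.p14 lengths by 4, 23, 0 and 2 bp, in the order given. The distances are uncertain by about that much, most of all at DUSP7.

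Motifs were searched on both strands in the 300 bases around the start (250 before, 50 after) of those genes of the lists described below whose start could be matched. Of the 12 with a summit in that window, 4 held GCGGGGGCG and 6 held GCGGGNGCG. Of the 25 with no summit there, 1 held GCGGGGGCG and 5 held GCGGGNGCG. Over all 35116 promoters of the table the shares were 5.07% and 9.46%. The classical core GCGTGGGCG was in 0.795% of all promoters and in 0 of the 12 and 0 of the 25, a statement about these letters in these windows only. The remaining pair of summits in a window with a motif, at ACTG1 and KLF6, lay 92 and 94 bp from it, with spans that differ by 67 and 72 bp. A match is a run of letters and was not tested as a binding site.

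The gains were of moderate size and spread over the whole genome. Each row carries the authors' fold, the treated pileup at the summit over the control level. The control level is a local level from the proliferating ChIP, scaled to the treated pool. Whether it is the pileup at the summit or a level over a wider stretch is not known here. The fold had a median of 3.16 (interquartile range 2.75 to 3.68), and 95% of sites were below 4.80. The fold and its p together give back the fragments in the treated pool, a median of 75 per summit (52 to 120), and the control level, a median of 22.8 fragments (15.4 to 36.9). The lowest control level on chromosomes 1 to 22 and X was 7.91 fragments. The median site stood at 2.88 times that level. The control is itself an EGR1 ChIP, so EGR1 already bound in proliferating cells and other background cannot be told apart here.

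Sites with a low control level showed the larger folds on fewer fragments. Sites were split into 4 classes of nearly equal size by control level. In the lowest class the median fold was 3.50 with 43 fragments. The next classes had median folds of 3.17 and 3.02, with 62 and 90 fragments. In the highest class the median fold was 2.83 with 169 fragments. A site with a low control level needs a larger fold to be listed, so this order describes the list and was not tested. On chromosomes 1 to 22 and X, 2621 of 12191 sites (21.5%) exceeded 5 times the lowest control, and these are called high-control sites below. Such sites may be stacked repeats or places strongly occupied before induction, which was not tested and cannot be told apart here.

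Among the 9570 sites on those chromosomes that were not high-control, the largest gains rose from near the lowest control level. The site of largest fold, at chr3:105511194-105511689, held 167 fragments (exact 95% Poisson interval 143 to 194, counting error only) over a control level of 13.4, a fold of 11.7. At chr14:95855949-95856436, 101 fragments (82.3 to 123) stood over the lowest control level, a fold of 11.4. These sites had a listed fold of 6.07 and 4.14 with induction alone. In both, the pool given clobetasol had the higher fold.

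The next sites by fold had folds closer to those with induction alone. At chr22:46767317-46767860 the fold was 9.47 with clobetasol and 10.5 without. At chr20:44239747-44240088 it was 9.46 and 11.7. At chr6:150590866-150591349 it was 9.05 and 9.71. At each of these the fold listed with induction alone was the higher of the pair. The difference between the treated pools was not tested here, and both folds share the proliferating pool.

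Fold was also high at chr2:102313459-102314251 (8.96 over a control level of 18.8, 176 fragments), at chr3:111721217-111721731 (8.66, 176 fragments) and at chr10:3109440-3109851 (8.54, 153 fragments). Their folds with induction alone were 10.7, 10.4 and 10.04. A site on chromosome 8, not given by position, had a fold of 8.96 with clobetasol and 7.04 with induction alone, so it was higher with clobetasol. The site at chr17:43033389-43033963 had a fold of 9.07 on 88 fragments and no overlapping site with induction alone. By the authors' q, the strongest sites of this class were at chr5:176080296-176080814 (fold 8.36, 265 fragments, −log10 q 142.3), chr6:26520888-26521464 (fold 7.97, 274 fragments, −log10 q 142.04) and chr1:144982823-144983406 (fold 7.06, 285 fragments, −log10 q 134.3). Their folds with induction alone were 8.51, 9.27 and 3.30, so the chr1 site had the widest gap of the 3. That site had a control level of 4.996 times the lowest, just inside the bound for the class. Also among the 10 highest by q, besides the chromosome 8 site and sites already given, were chr2:238343447-238343923 (fold 6.52), chr20:1307825-1308283 (fold 6.19), chr1:225642559-225642926 (fold 7.79) and chr10:17142534-17142965 (fold 6.74).

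Most sites were narrow. Width had a median of 339 bp (interquartile range 277 to 453), and the narrowest, 55 sites, were 223 bp wide. Width was at least 1000 bp at 272 sites (2.20%) and at least 2000 bp at 13. With induction alone the median width was 423 bp and 1414 sites (8.68%) reached 1000 bp. In most sites the summit lay near the middle: among sites that were not high-control, it fell in the outermost 25% at either end of the peak in 9.03% of those under 1 kb. Among the 192 of 1 kb or more it did so in 49.5%. Wide sites were thus more often lopsided in this list.

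Fold did not follow width throughout. In 4 classes of nearly equal size, from narrow to wide, the median fold was 2.91, 3.197, 3.38 and 3.197, and the class from 340 to 453 bp had the highest. Median fragments at the summit were 62, 69, 85 and 89. Fragments went up from class to class while fold peaked in the class from 340 to 453 bp.

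**Figure D1:**
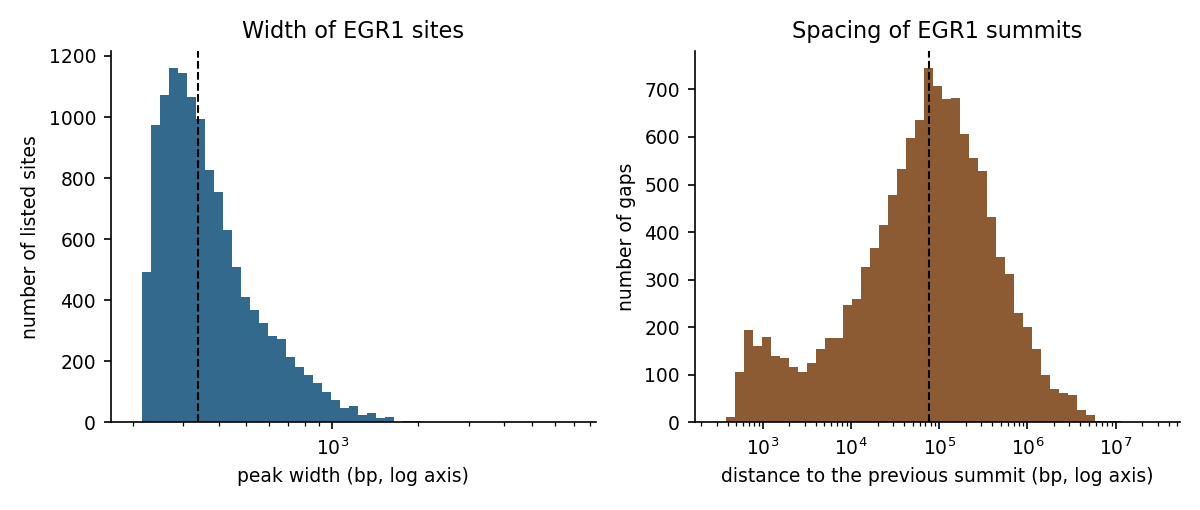
Left, the number of the 12340 listed sites by peak width in bp (log axis). Right, the number of distances between neighbouring summits on chromosomes 1 to 22 and X (log axis, bp). Dashed lines mark the medians, 339 bp and 77.0 kb. Widths pile up just above the 223 bp minimum, and the distances show a main hump near 100 kb and a small one near 1 kb.

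Of the 192 sites of 1 kb or more that were not high-control, some lay along or just beyond genes of the lists described below. Gene positions in hg19 were written from general knowledge of that build, not from an annotation file, and were kept only where they passed the check described with the gene lists below. The site at chr1:150539602-150545153, 5552 bp long with a fold of 2.78 on 52 fragments, began 1874 bp beyond the end of MCL1, which encodes an antiapoptotic BCL2 relative. The site at chr5:137805147-137807505, 2359 bp long with a fold of 3.46 on 79 fragments, began 143 bp after the end of EGR1. A site of 2029 bp (fold 2.69, 45 fragments) lay 920 bp after the end of DUSP1, which encodes a MAP kinase phosphatase. Sites of 1498, 1384 and 1162 bp lay across the starts or spans of JUN, SPRED1 and VEGFA, with folds of 2.88, 3.25 and 3.31. A pair of wide sites on chromosome 15, chr15:90325681-90328085 and chr15:90351069-90353384, had folds of 3.39 and 2.88. Summits of the wide sites given here by position held 35 to 79 fragments. They do not stand for wide sites in general: the 192 sites of 1 kb or more that were not high-control had a median of 79.5 fragments and a fold of 3.39, against 64 and 3.23 for narrower ones. The link to these genes was noticed after the values were seen.

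Sites were unevenly spaced along the chromosomes. Neighbouring summits were a median of 77.0 kb apart (interquartile range 21.4 to 221 kb). Many distances were far shorter: 2012 of 12168 (16.5%) were within 10 kb and 496 (4.08%) within 1 kb. The distances had a dip between these scales. In steps of equal ratio there were 435 distances from 0.562 to 1 kb, 370 from 1 to 1.78 kb, 289 from 1.78 to 3.16 kb, 371 from 3.16 to 5.62 kb and then a steady climb to 1735 from 56.2 to 100 kb. The closest summits were 391 bp apart, and 584 distances (4.80%) were over 1 Mb.

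Joined at gaps of at most 5 kb, 2725 of 12191 sites (22.4%) fell into 1231 clusters, of which 1034 were pairs, 156 were triplets and 41 had 4 or more sites. The other 9466 stood alone. Single and clustered sites were alike in strength: the median fold was 3.18 for single sites and 3.10 for clustered ones, and the median width 335 and 351 bp. High-control sites were 20.9% of single and 23.7% of clustered sites. The largest cluster, of 13 sites, lay on chromosome 10, held 13 high-control sites and had folds from 1.06 to 1.42.

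Among sites that were not high-control, the largest cluster held 5 sites over 12.2 kb at chr19:13950328-13962512, with folds from 2.21 to 5.18. A cluster of 4 at chr6:34210267-34215453 had folds from 2.63 to 6.34. Clusters of 4 also lay at chr16:67274890-67283188 (folds 2.95 to 4.76) and chr17:3791860-3796721 (folds 2.49 to 3.05). The cluster of 4 at chr19:13260883-13267095, with folds from 2.58 to 4.00, covered IER2, an immediate early gene. Such clusters are several peaks over a few kb and do not show how many separate binding events they hold.

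At the other end, some gains stood far from any other. The site at chr13:60971457-60971735 was 7.41 Mb from its nearest neighbour, with a fold of 2.46 on 74 fragments. A site on the X chromosome, chrX:90929568-90929892, was 4.72 Mb from the next (fold 3.54). On chromosome 4, chr4:63965528-63965786 was 4.30 Mb away from any other and had a fold of 4.89 on 186 fragments, and chr4:135122502-135122781 was 3.30 Mb away (fold 2.74, 44 fragments). These isolated sites were between 259 and 325 bp wide.

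The number of gains per Mb differed widely between chromosomes, with lengths of the hg19 chromosomes taken from general knowledge. Chromosome 19 held 12.6 sites per Mb (746 sites), chromosome 17 held 8.78 and chromosome 16 held 6.34, against 4.02 over chromosomes 1 to 22 and X together. The fewest per Mb were on the X chromosome (1.71), chromosome 13 (2.14) and chromosome 4 (2.40). Whole lengths were used, with unsequenced stretches not taken out, which may affect the order of chromosomes with close values. The median fold by chromosome ran from 3.10 to 3.37 and the median width from 319 to 360.5 bp. Chromosomes thus differed more in the number of their sites than in the fold or width of those sites.

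**Figure D2:**
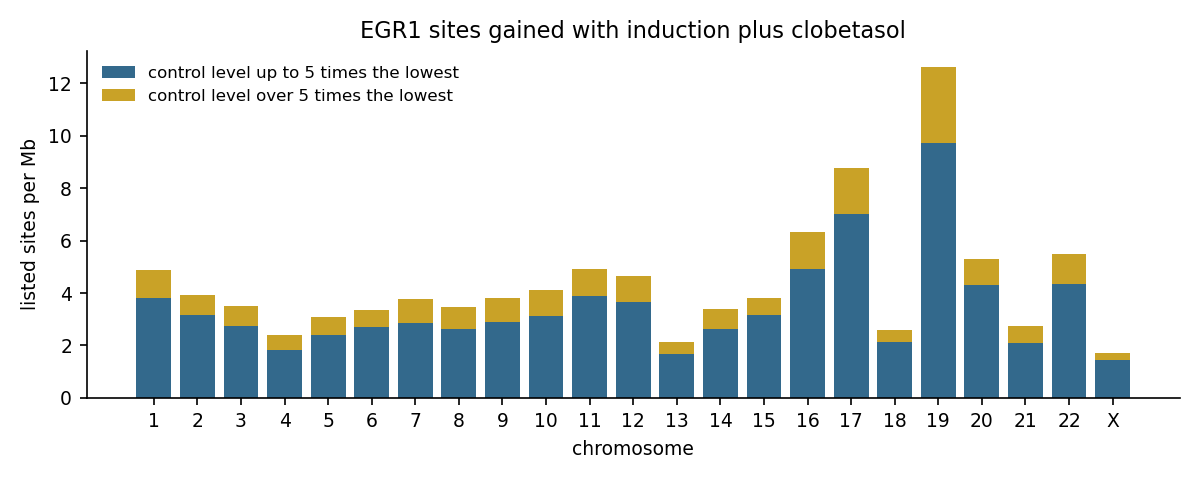
Listed sites per Mb of each chromosome, with high-control sites (more than 5 times the lowest control) stacked on the others. Chromosome 19 stands at 12.6 and the X chromosome at 1.71 sites per Mb, and high-control sites make up from 14.3% to 24.5% of a chromosome's sites.

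Gains were concentrated within chromosomes too. Of 3053 windows of 1 Mb, 772 (25.3%) held no site, and the 306 densest windows held 38.7% of all sites. Windows without sequence were not taken out of these counts. Counting sites that were not high-control, the densest window was chr19:18000001-19000000 with 27, followed by chr16:1-1000000 with 25 and by chr19:1000001-2000000, chr19:2000001-3000000 and chr16:1000001-2000000 with 24 each.

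Known genes were examined in lists chosen for their roles in ERK signalling, arrest, secretion and the glucocorticoid response. Of 89 genes chosen, 86 had such a position in hg19, and 75 were kept because chromosome, span length (within 10%, a bound set after the values were seen) and, for the 56 in the promoter table, strand matched RefSeq's gene tables of GRCh38.p14. The median difference in span length was 27 bp. A summit of the clobetasol list lay within 5 kb of the start of 52 of the 75. For comparison, 3.57% of all 10 kb windows of the genome hold a summit, a share that includes windows without genes and is therefore not a background of gene starts. Within 1 kb of the start there was a summit at 41 of 75, where 0.774% of 2 kb windows hold one. With induction alone 58 of the 75 had one within 5 kb, where 4.61% of 10 kb windows hold one, and 7 of these had none with clobetasol. The lists were chosen with earlier results of these data known, so these counts are descriptions. A summit near a start is also not shown to act on that gene. Each gene was measured from a single start, so a summit at another start of the gene does not count as near.

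The nearest summit lay within 200 bp of the start at 24 of the 52 genes, before the start at 28, after it at 23 and at the start itself at RB1, with a median position of −23.5 bp. The median fold of the nearest sites was 3.28, against 3.16 over the whole list, and 29 of the 52 were above that value. High-control sites were 20 of the 52, against 2621 of 12191 (21.5%) over chromosomes 1 to 22 and X. In all 95 summits lay within 5 kb of the 52 starts, and 27 genes had more than 1.

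**Figure D3:**
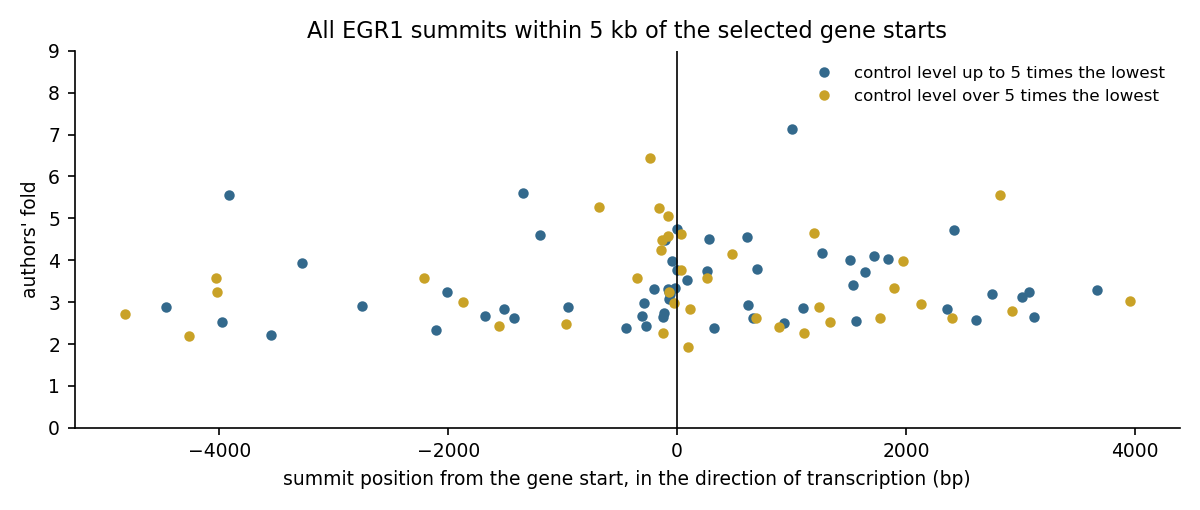
Position of all 95 summits within 5 kb of the selected gene starts (horizontal axis, bp in the direction of transcription) against the authors' fold (vertical axis). Summits gather close to the start, and the nearest lay within 200 bp at 24 of 52 genes. High-control sites are in yellow.

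EGR1's own gene and the genes of its NAB corepressors carried sites in the presence of clobetasol. At EGR1, 3 summits lay within 5 kb of the start: at −683 bp with 297 fragments over a control level of 55.6 (fold 5.26), at 476 bp with 170 over 40.2 (fold 4.15), and at −1423 bp with 49 over 18.1 (fold 2.62). The site nearest the start, chr5:137801095-137802155, had a fold of 5.57 with induction alone. NAB2 carried 5 summits, the nearest 113 bp after its start with 549 fragments over a control level of 194 (fold 2.83). NAB1 carried 2, the nearest 2127 bp after its start over a control level of 190 (fold 2.95). The nearest sites of NAB1 and NAB2 stood at 24.0 and 24.5 times the lowest control, and that of EGR1 at 5.08 times, barely over the bound of 5. EGR4 had no site within 5 kb in either list.

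Inhibitors that feed back on ERK signalling held some of the larger gains near a start. Of 11 genes, 9 had a summit within 5 kb, with a median fold of 4.48. At SPRY2, which encodes a Sprouty inhibitor of receptor signalling, chr13:80915042-80915562 held 506 fragments over a control level of 77.7, a fold of 6.44 with its summit at −234 bp. At DUSP5, a nuclear ERK phosphatase, chr10:112257261-112257712 held 309 fragments over 60.3, a fold of 5.06. At RASA4, a RAS GTPase activating protein, chr7:102257068-102257468 held 722 fragments over 157, a fold of 4.58. RASA4 has near-identical copies nearby, so its reads may be split or shared between them. The overlapping folds with induction alone were 7.47, 6.27 and 6.01. The SPRY2, DUSP5 and RASA4 sites were high-control, at 9.82, 7.62 and 19.8 times the lowest.

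Folds at the rest of this group ranged from 2.22 at SPRED2 to 4.51 at ERRFI1, a feedback inhibitor of the EGF receptor. DUSP2 had a small site, 41 fragments over a control level of 8.37 (fold 4.48), near the lowest level of the list. SPRY4 had no summit within 5 kb in either list. DUSP1 had none with clobetasol, and its nearest with induction alone had a fold of 3.06 on 46 fragments. The clobetasol site 920 bp after the end of DUSP1 (fold 2.69, 45 fragments) had its summit outside 5 kb of the start.

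Immediate early genes had gains near the median of the list. Of 13 genes, 9 had a summit within 5 kb, with folds from 2.65 at SRF to 3.76 at KLF6 and a median of 3.32. At KLF6, a Kruppel-like factor, chr10:3827325-3827639 held 366 fragments over a control level of 96.5. At IER3, chr6:30710091-30710832 held 60 over 15.4 (fold 3.72). At JUND, an AP-1 subunit, chr19:18392528-18392980 held 368 over 103 (fold 3.56). JUNB had 5 summits and IER2 had 4 within 5 kb, spread before, along and, at JUNB, beyond the gene. FOS, FOSB, ATF3 and MCL1 had no summit within 5 kb of the start used in either list. Inside ATF3, 43221 bp after that start, a clobetasol site had a fold of 2.86 on 36 fragments.

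**Figure D4:**
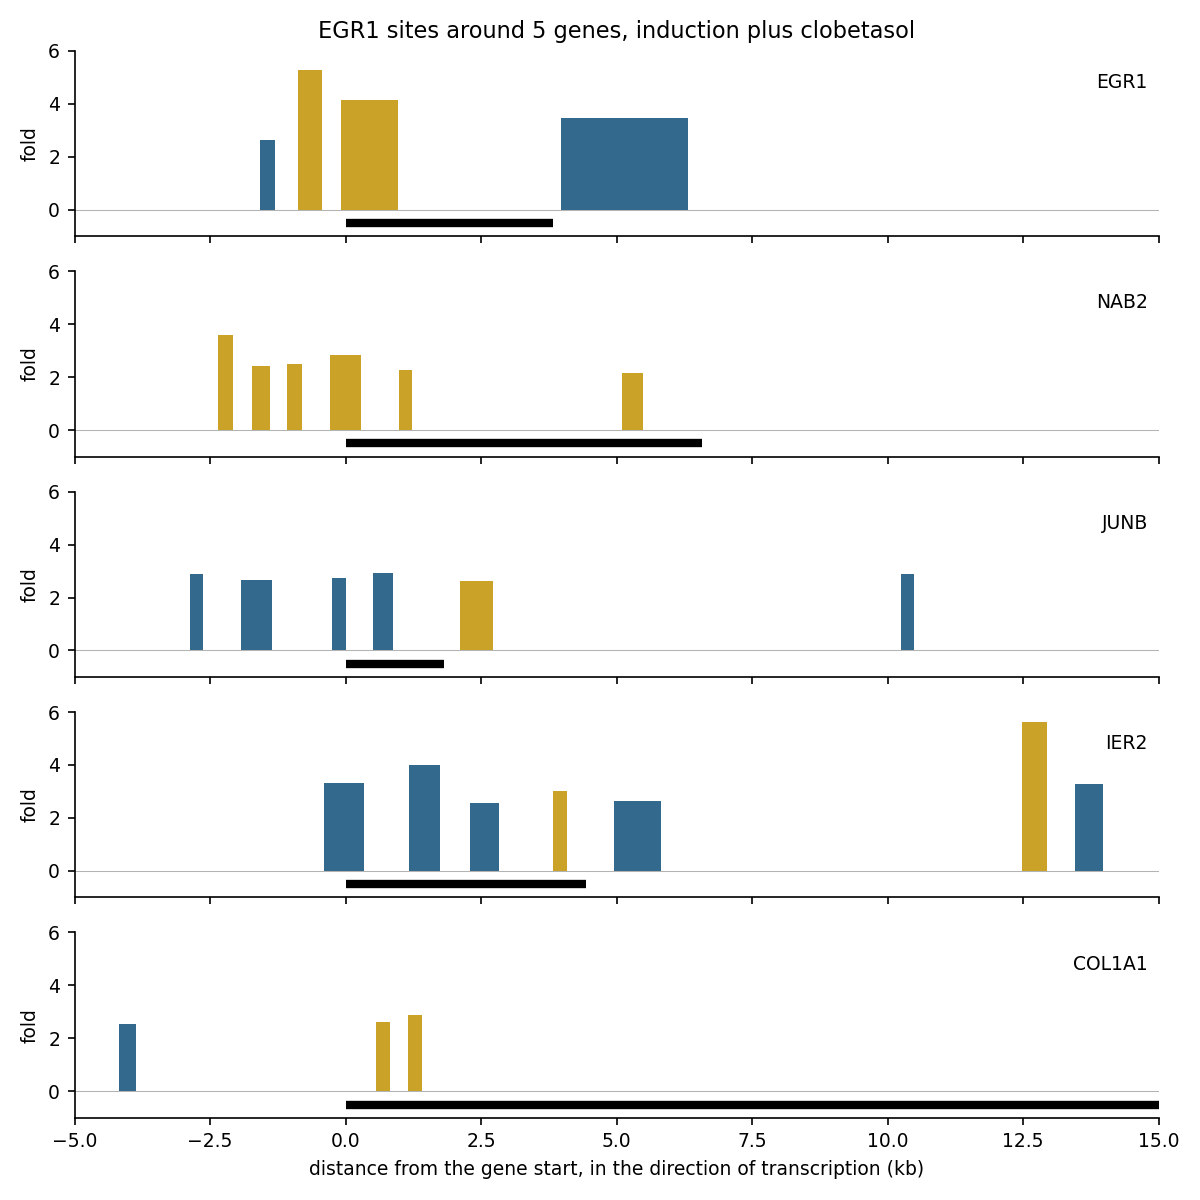
Sites of the clobetasol list around 5 genes, as bars whose height is the authors' fold (vertical axis) and whose width is the peak, by distance from the gene start in kb in the direction of transcription. Black bars mark the gene, and yellow marks high-control sites. EGR1, NAB2, JUNB and IER2 carry several separate sites, and COL1A1 carries 3 within 5 kb of its start.

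The senescence arrest list, which also holds CCND1 and LMNB1, had gains at the start of some genes and none near others. Of 9 genes, 5 had a summit within 5 kb. At RB1, the retinoblastoma gene, the summit lay at the start, with 76 fragments over a control level of 19.4 (fold 3.77, and 5.36 with induction alone). At CCND1, the gene of cyclin D1, 128 fragments stood over 39.5 (fold 3.18, and 5.15 with induction alone). The largest fold, 5.57 on 303 fragments, lay 2823 bp after the start of CDKN2D, a CDK inhibitor gene, and outside its span. LMNB1, the gene of lamin B1, had a weak site (fold 1.93). The CDKN2D and LMNB1 sites were high-control, at 6.77 and 6.44 times the lowest.

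No clobetasol summit lay within 5 kb of the starts used for CDKN2A and CDKN2B, the genes of p16 and ARF and of p15. With induction alone their nearest sites had folds of 2.91 and 3.19 on 50 and 48 fragments. These were small sites, and whether they fell with clobetasol or missed its threshold was not tested. Within CDKN2A, 19231 bp after the start used, a clobetasol site had a fold of 4.78 on 103 fragments. Whether this site lies at another start of the gene was not examined. CDKN1B had none within 5 kb in either list.

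Among secreted and matrix genes, gains lay near several matrix and growth factor genes. Of 19 genes, 12 had a summit within 5 kb, with a median fold of 2.91, below the 3.16 of the whole list. The largest nearest site was at FN1, the fibronectin gene, 33 bp after the start. There 211 fragments stood over a control level of 44.9 (fold 4.62, and 4.84 with induction alone). The FN1 site was high-control, at 5.67 times the lowest. LIF, a cytokine of the interleukin-6 family, had a fold of 3.75 with 58 fragments over 14.7, 257 bp after its start (fold 3.38 with induction alone), and a stronger site at −3913 bp (fold 5.56, 217 fragments). VEGFA, an angiogenic growth factor gene, had a fold of 3.31 with 111 over 32.8. IL6, IL1A, IL1B, MMP1 and MMP3, inflammatory cytokines and matrix proteases of the senescence secretome, had no summit within 5 kb in either list, and nor did IGFBP3.

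Glucocorticoid-responsive genes carried 14 summits near 6 of 10 starts, beside 52 of 75 genes over all lists. DUSP1 and ERRFI1 count in this list as well as among the ERK inhibitors. FKBP5, TSC22D3 and SGK1 failed the check of positions and are not among the 10. The largest nearest site was at GADD45B, with 395 fragments over a control level of 74.4 (fold 5.25, and 5.87 with induction alone). The GADD45B site was high-control, at 9.40 times the lowest. At MT2A, a metallothionein gene, chr16:56641101-56641495 held 139 fragments over 29.5 (fold 4.59, and 5.31 with induction alone), its summit at −1199 bp. A second site there, chr16:56642035-56644591, was 2557 bp wide and covered the gene. Its summit lay 1893 bp after the start, beyond the gene, with a fold of 3.34 on 157 fragments. That site was high-control, at 5.84 times the lowest level. At NFKBIA, the NF-kappaB inhibitor gene, 67 fragments stood over 13.9 (fold 4.56, and 6.996 with induction alone). PER1, a circadian repressor gene, had 4 summits, with folds from 3.01 to 4.64.

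KLF9 was the 1 gene of the 75 with a summit within 5 kb in the clobetasol list and none in the induced list. Its nearest site, 1104 bp after the start, held 48 fragments over 16.1 (fold 2.87) and overlapped no induced site. The other, at −4826 bp, was high-control with 283 fragments over 103 (fold 2.73). Inside ZBTB16, a zinc finger repressor gene, a site 80129 bp after the start had a fold of 4.74 on 45 fragments. TGFB2 and MT1X had no summit within 5 kb in either list, and a pair of sites farther inside TGFB2 had folds of 3.76 and 3.38. The KLF9 sites had a −log10 q of 7.24 at the nearest and 43.3 at the other, and the ZBTB16 site had 14.6, against a median of 13.8 over the list.

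Of 11 genes of the cytoskeleton and other roles, 9 had a summit within 5 kb, with a median fold of 3.98. EPHA2, which encodes an ephrin receptor, had the largest fold of all 75 genes, 7.14, with 97 fragments over a control level of 12.7, 1006 bp after its start, and 7.31 with induction alone. LIMK1, a kinase gene of actin turnover, had 61 over 12.1 (fold 4.75) with its summit at −2 bp, and 8.01 with induction alone. BAIAP2 had 559 over 124 (fold 4.48), and 6.07 with induction alone. The weakest were VCL (2.67), WNT1 (2.44) and ACTB (2.41). The BAIAP2 and ACTB sites were high-control, at 15.7 and 5.76 times the lowest. WNT1 had a fold of 6.27 with induction alone. TPM1 and SNAI1 had no clobetasol summit within 5 kb, and their nearest induced sites had folds of 4.29 and 5.18. A clobetasol site inside the span of SNAI1, 5555 bp after its start, had a fold of 3.201 on 103 fragments.

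**Figure D5:**
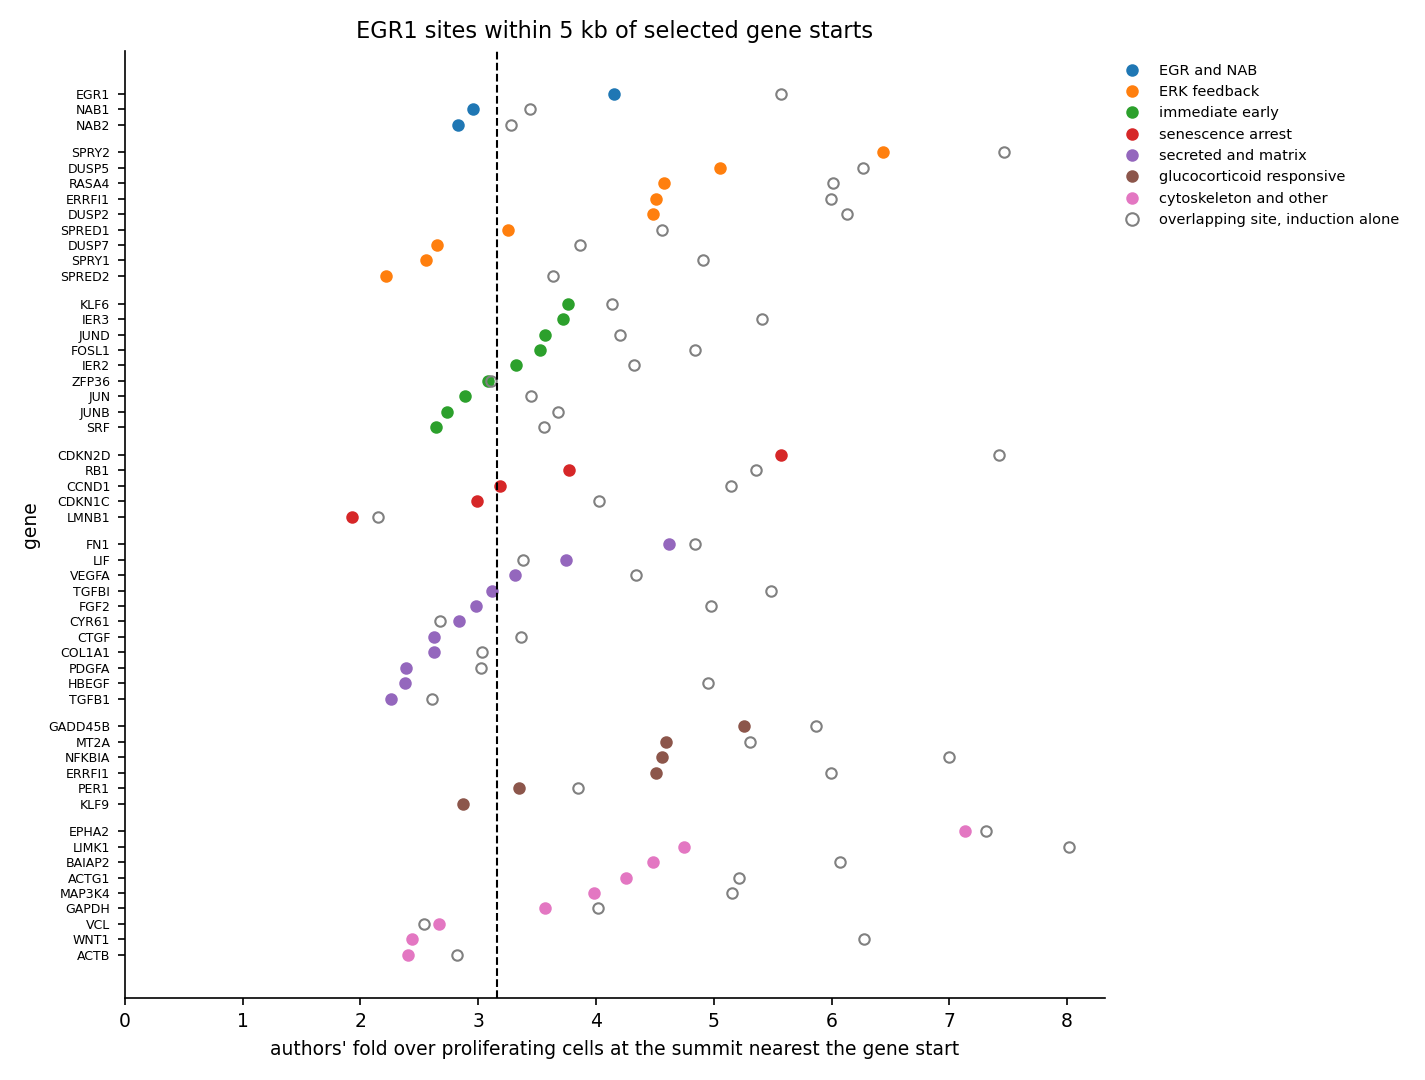
Authors' fold over proliferating cells at the summit nearest the start of 51 of the 52 genes with a site within 5 kb (filled points, by gene list) and at the overlapping site with induction alone (open grey points). The dashed line is the median fold of the clobetasol list, 3.16. EPHA2 and SPRY2 stand farthest right among filled points, at 7.14 and 6.44.

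At the 51 genes where the nearest site overlapped an induced one, the median fold was 3.31 with clobetasol and 4.56 with induction alone. At 3 of them, LIF, CYR61 (2.84 and 2.68) and VCL (2.67 and 2.54), the fold with clobetasol was the higher. These values share the proliferating pool, whose lowest scaled level was 7.91 fragments in one list and 6.48 in the other, so they are set side by side without a test.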

How the data were processed

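EGR1 ChIP-seq libraries were pooled by group by the authors, per the peak names in the files, and the pooled proliferating ChIP served as control. Per the submitters' processing notes, the build was hg19 and the software comprised MACS2 2.1.1.20160309, BWA and SAMtools 1.3.1, besides FastQC 0.11.5, bcl2fastq and cutadapt 1.15. Of the peak caller's settings nothing further is known here. The deposited values per peak are a fold (a ratio of treated pileup to control level), −log10 p, −log10 q and a score, in all 12340 rows 10 times the −log10 q with its decimals dropped. Peak numbers run to 26677 for 12340 peaks, so peaks may have been removed after calling. The lowest deposited −log10 q was 5.00012.

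Fragments and control level were solved from fold, (pileup + 1)/(control + 1), and the Poisson tail in Python 3.11.15 with scipy 1.17.1. At 99.5% of peaks the solved pileup was whole to within 0.05. On data simulated with the same formulas every one of 4045 peaks was recovered, after peaks with a p too small to compute were left out. This checks the arithmetic only, and the highest control levels of the list were outside the simulated range. High-control sites are those over 5 times the lowest level.

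Named sites were the 10 of largest fold, the 10 of highest −log10 q, the 5 widest and the 5 most isolated that were not high-control, the top 5 clusters, and the 3 chromosomes with most and fewest sites per Mb. Sites on chromosome 8 are counted but not given by position. Of genes, the 3 of largest fold per list and those without a site were given. The members and lists were chosen with earlier results of these data known. Without an hg19 annotation, gene positions and chromosome lengths come from general knowledge of the build. Only the gene spans were checked, against lengths in RefSeq's GRCh38.p14 tables. One start, of MAP3K4, was corrected after a first comparison. The bounds of this check, of promoter matching (100 and 10 bp) and of nearness (200 and 15 bp), and the genes mapped in a figure, were set after values were seen. Genes that failed the check, CDKN1A among them, are not described. Some named items are not reported here, though counts include them. No test between groups was made.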

Additional observations from a re-analysis of the deposited data

Results flagged for a closer look

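The clobetasol list held 149 sites outside chromosomes 1 to 22 and X, which the comparisons by position did not use. They had a median fold of 2.13 (range 1.153 to 8.10) and 93 of them exceeded 5 times the lowest control. Their median control was 27.8 times as high as the lowest. Alternate haplotype contigs held 42 of these, of which 1 was over 5 times the lowest, and the mitochondrial genome held 7.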

How the results depend on the processing

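No paired analysis was possible because each list pools its replicates. Leaving out a replicate was not possible for the same reason. Of 35 alternative values, 14 stayed close and 21 moved, and none has a direction to reverse. At a fold of at least 3 the number of sites was 7281, the median fold 3.56 and the median width 353 bp. At −log10 q of at least 10 the median fold was 3.37, the median width 357 bp, the median distance between summits 114.7 kb and chromosome 4 held 1.59 sites per Mb. Without high-control sites and sites outside chromosomes 1 to 22 and X, the median fold was 3.24, the median width 334.5 bp, the median distance 96.1 kb, and 811 clusters held 18.1% of sites. Joined at 1 kb, 704 clusters held 12.1% of sites, and at 10 kb clusters held 29.7%. The share of promoters with a motif was 0.795% for GCGTGGGCG, 5.07% for GCGGGGGCG and 9.46% for GCGGGNGCG. The number of genes with a site was 41 within 1 kb, 59 within 10 kb, 37 for folds from 3 and 42 for −log10 q from 10. A pair of alternatives was added after seeing the data: without high-control sites it was 41 of 75, and with all 86 genes, span length unchecked, it was 60.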
